A study of Mus musculus with 8 samples.

Results

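The Mir17hg cluster (miR-17-92) and the Mcm7 cluster (miR-106b-25) are related groups of miRNA hairpins, each cut out of 1 longer transcript, and 10 of their mature miRNAs were examined in cardiomyocytes of sham and pressure-overloaded mouse hearts. The members were chosen by name, 6 from Mir17hg (mmu-miR-17-5p, mmu-miR-18a-5p, mmu-miR-19a-3p, mmu-miR-19b-3p, mmu-miR-20a-5p and mmu-miR-92a-3p) and 4 from Mcm7 (mmu-miR-106b-5p, mmu-miR-106b-3p, mmu-miR-93-5p and mmu-miR-25-3p), written from here on without the prefix of the species. All 10 were present among the 697 miRNAs counted. One of them, miR-19b-3p, served the study as a reference for scaling, together with miR-126a-3p, so the comparison asked whether the other members follow miR-19b-3p.

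Small RNA was sequenced from 4 sham and 4 TAC libraries. TAC (transverse aortic constriction) narrows the aorta by surgery and overloads the left ventricle until the heart fails, and sham mice had no constriction. The mice were male and 2 months old at surgery, and myocytes were isolated by perfusion of the heart 14 weeks later, with 1 heart behind each library. No genotype, transgene or drug is named for either group. The libraries held 4005668 to 5392576 miRNA counts in sham and 5507169 to 7798943 in TAC, and no pair of libraries agreed within sampling noise. The labelled cell type was checked by 4 cardiomyocyte miRNAs (miR-1a-3p, miR-133a-3p, miR-208a-3p and miR-499-5p), which together made up 160681 to 245835 CPM (counts scaled to a common library total) in every library. The endothelial miR-126a arms were also present, at 29274 to 72051 CPM, so the preparations held RNA of other cells, and in such bulk samples fewer cells of a type and less RNA per cell cannot be told apart. TAC 4 stood apart by its epithelial miRNAs (the miR-200 family and miR-205-5p), which summed to 1406 CPM against 223 to 401 CPM in the other libraries. Sham 1 stood apart from the other sham libraries, with a chi-square per degree of freedom over miRNA counts of 854 to 1062 to each of them, against 280 to 367 among Sham 2, Sham 3 and Sham 4.

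The Mir17hg transcript is a long non-coding RNA that MYC activates, and its miRNAs are known for driving proliferation and for their need in heart and lung development. The other cluster lies inside Mcm7, which encodes a subunit of the replicative DNA helicase, so its miRNAs are made with a gene of the cell cycle. Hairpins of 1 transcript start out in equal number, while the mature miRNAs are cut and degraded separately, so their levels can differ. A miRNA finds its targets mainly through its seed, bases 2 to 8 from the 5′ end.

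On the mouse genome (GRCm38.p6, the assembly of the labels' mm10) the 6 hairpins of the Mir17hg cluster lie within 813 bases at chr14:115043684-115044496 on the plus strand, in an exon of the lincRNA Mir17hg. The 3 hairpins of the other cluster lie within 476 bases at chr5:138165332-138165807 on the minus strand of Mcm7. No annotated exon covers Mir106b, whereas 1 transcript annotated as a retained intron has an exon over Mir93 and Mir25. All 10 mature sequences were found in RefSeq. They fall into 5 seed groups that cut across the clusters, and the sequences are shown because the seed groups and near-identical pairs bear on which counts can be told apart (seed in capitals).

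The AAAGUGC seed is shared by 4 members, a family known to repress cell cycle inhibitors such as Cdkn1a:
miR-17-5p: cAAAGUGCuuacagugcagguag
miR-20a-5p: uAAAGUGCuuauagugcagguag
miR-106b-5p: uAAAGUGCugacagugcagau
miR-93-5p: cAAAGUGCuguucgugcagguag
The GUGCAAA seed is shared by the miR-19 pair:
miR-19a-3p: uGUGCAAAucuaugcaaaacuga
miR-19b-3p: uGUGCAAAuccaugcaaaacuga
The AUUGCAC seed is shared by miR-92a-3p, known to restrain vessel growth in endothelium, and miR-25-3p, known to repress the calcium pump gene Atp2a2 in the heart:
miR-92a-3p: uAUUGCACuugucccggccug
miR-25-3p: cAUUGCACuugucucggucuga
The other members have a seed of their own, miR-18a-5p and the second arm of the miR-106b hairpin:
miR-18a-5p: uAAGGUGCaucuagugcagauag
miR-106b-3p: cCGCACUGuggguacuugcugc

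The miR-19 pair differs at 1 position (U11C, miR-19a-3p first, counted from the 5′ end), and miR-17-5p and miR-20a-5p differ at 2 (C1U and C12U, miR-17-5p first). Counts of such pairs could be exchanged by mismatched reads, and how reads fitting several miRNAs were handled is not given in the sources used here. The mature miR-19b-3p and miR-92a-3p are also encoded on chrX:52741854-52742013, with the same letters, so their counts cannot be assigned to Mir17hg alone. Of 10 arms that only the X-linked cluster encodes, 2 were in the files, and neither reached the mean of 100 counts that testing required. miR-20b-5p had 0 to 3 counts in a library and miR-363-3p had 7 to 24 in all but TAC 4, which had 60.

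The members were a small share of the pool, 0.253% ± 0.0162 of miRNA counts in the sham libraries and 0.168% ± 0.0184 in the TAC libraries (mean ± SD of 4). miR-92a-3p made up 54.2% ± 1.87 of the members' counts in sham and 54.9% ± 1.31 in TAC. miR-25-3p made up 25.3% ± 2.68 in sham and 29.2% ± 0.768 in TAC. The groups all but touched, with Sham 3 at 28.29% and TAC 2 at 28.39%. The order of the mean levels was the same in both groups: miR-92a-3p, miR-25-3p, miR-19b-3p, miR-20a-5p, miR-93-5p, miR-106b-3p, miR-17-5p, miR-106b-5p, miR-19a-3p and miR-18a-5p. In sham, the ranges of neighbours overlapped for miR-19b-3p with miR-20a-5p, for miR-20a-5p with miR-93-5p, and along the run from miR-106b-3p to miR-19a-3p. Members listed for 1 cluster thus differed widely in counts, and in sham the mean was 1369 CPM for miR-92a-3p and 2.54 CPM for miR-18a-5p. Counts of miR-92a-3p may include those of its copy on chrX.

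The values in each library are given next as CPM by library total, a share of the sequenced miRNA pool with no reference miRNA, and their direction does not carry over to the reference scaling given further on. miR-19b-3p was at 177.6, 260.9, 220.3 and 193.5 CPM in Sham 1 to 4 and at 103.3, 92.6, 92.6 and 137.7 CPM in TAC 1 to 4. All TAC libraries were below all sham libraries, and TAC 4 was the highest of its group. The reference miRNA thus took a share of the pool whose geometric mean was 50.1% lower in TAC (2-sided exact permutation test of mean log2 CPM, p = 0.0286, the smallest that 8 libraries allow). The other reference, miR-126a-3p, an endothelial miRNA, was at 39017 ± 10589 CPM in sham and 22483 ± 1313 CPM in TAC and was likewise lower by 40.7% with no overlap (exact permutation test, p = 0.0286). The paper reports both references as unaltered by QPCR, for which it used snoRNAs as controls. That is a different measure from a share of the pool.

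miR-19a-3p, the close relative of the reference, was at 20.1, 30.6, 21.0 and 24.0 CPM in sham and at 9.4, 9.0, 10.4 and 18.4 CPM in TAC. The groups did not overlap and TAC 4 was again the highest TAC library, as for miR-19b-3p. miR-92a-3p was at 1400.3, 1488.5, 1374.6 and 1214.5 CPM in sham and at 862.7, 873.2, 900.7 and 1050.2 CPM in TAC. Its TAC libraries were all below the sham libraries and lay close together apart from TAC 4. miR-17-5p was at 42.3, 29.7, 34.4 and 26.5 CPM in sham and at 16.0, 18.1, 19.1 and 21.0 CPM in TAC. The groups were apart, and Sham 1 was the highest library.

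miR-20a-5p was at 190.6, 80.5, 79.7 and 96.1 CPM in sham and at 36.5, 37.7, 53.2 and 57.5 CPM in TAC. Sham 1 was far above the other sham libraries, and the groups did not overlap with or without it. miR-18a-5p, known to repress the matrix gene Ccn2, had 4 to 17 counts in a library, a counting error of 24.3% to 50.0%. Its levels of 3.02, 2.41, 3.46 and 1.25 CPM in sham and 0.726, 1.03, 0.946 and 1.38 CPM in TAC overlapped between Sham 4 and TAC 4.

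In the Mcm7 cluster, miR-25-3p was at 581, 619, 741 and 612 CPM in sham and at 456, 439, 508 and 563 CPM in TAC. The groups were apart by the narrow gap between TAC 4 and Sham 1. miR-93-5p was at 92.5, 56.7, 68.9 and 58.4 CPM in sham and at 37.4, 38.1, 49.4 and 46.4 CPM in TAC. The groups did not overlap, and Sham 1 was the highest library, as for miR-17-5p and miR-20a-5p, which share its seed. miR-106b-5p, of the same seed, was at 27.4, 24.1, 34.0 and 20.7 CPM in sham and at 13.4, 13.8, 17.0 and 21.7 CPM in TAC, and there Sham 3 was the highest and TAC 4 was above Sham 4. miR-106b-3p was at 41.5, 31.2, 42.2 and 38.7 CPM in sham and at 22.0, 22.7, 28.5 and 23.4 CPM in TAC, with no overlap. By cluster, the summed levels were 1754 ± 148 CPM in sham and 1106 ± 122 CPM in TAC for Mir17hg, and 773 ± 76.0 CPM and 575 ± 65.9 CPM for Mcm7, and in both clusters all TAC libraries were below all sham libraries.

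**Figure D1:**
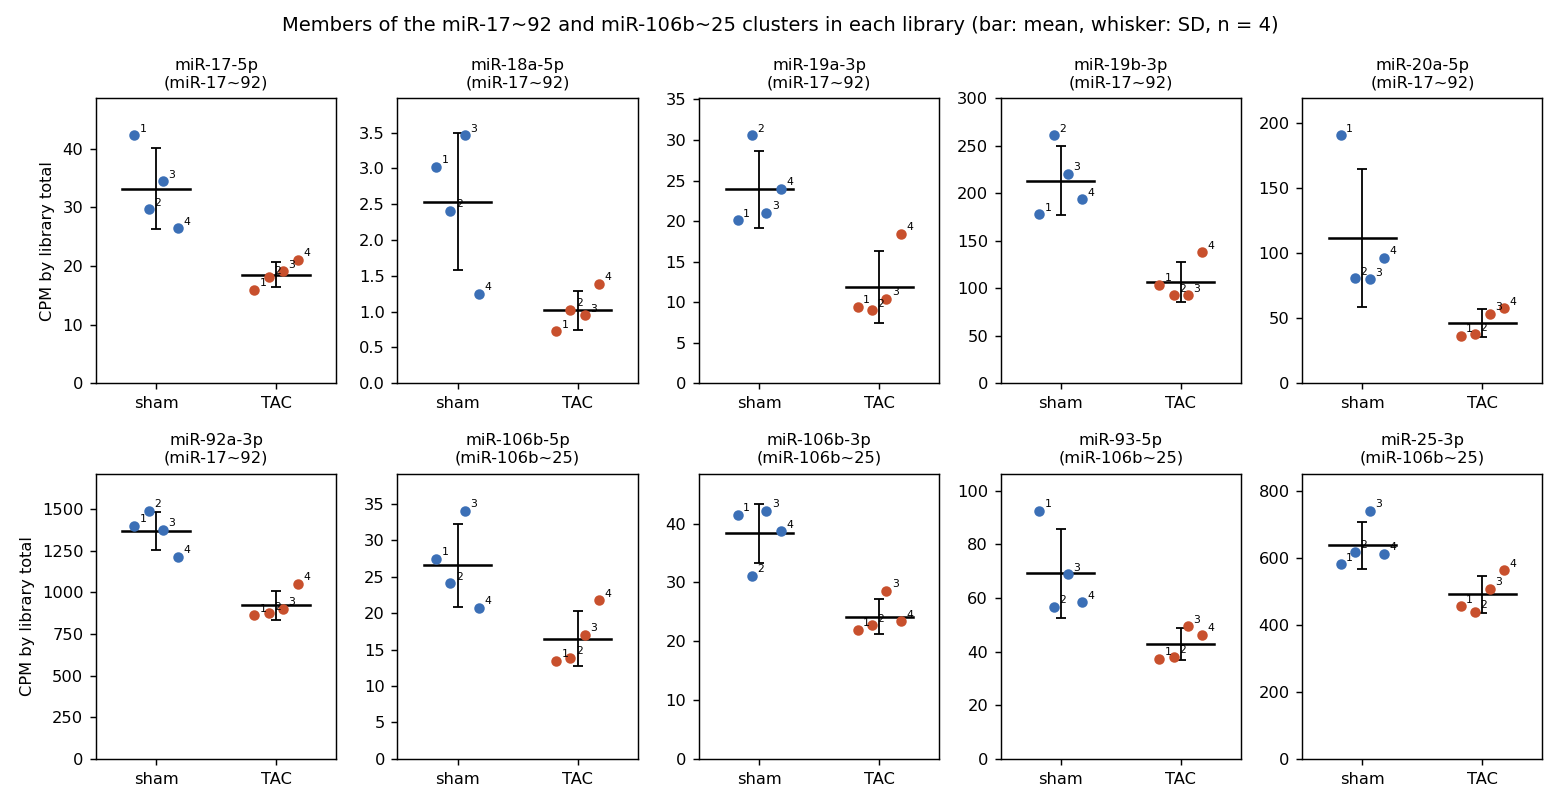
Level of each member in each library, as CPM by library total (y axis, from 0, with a scale of its own for each miRNA), for 4 sham (blue) and 4 TAC (red) libraries numbered by replicate; bars are means and whiskers SD. Every TAC point is below every sham point except in miR-18a-5p and miR-106b-5p; the direction depends on the scaling to library totals and is positive for most members after reference scaling.

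Of the members, 8 passed the filter of a mean above 100 counts over the 8 libraries and were tested; miR-19a-3p (mean 97.2 counts) and miR-18a-5p (9.62 counts) did not. With library totals as the scale, 7 of the 8 had all TAC libraries below all sham libraries, against 27.4% of the 223 miRNAs tested. edgeR's quasi-likelihood test, adjusted over all 223 by Benjamini-Hochberg, called 3 of the 8 lower, against 10.3% of all tested, where a call needs both an adjusted p under 0.05 and a change of more than 1.7-fold. On the log2 scale of TAC over sham, miR-19b-3p fell by 1.00 (SE 0.18, adjusted p = 0.00511), miR-20a-5p fell by 1.27 (SE 0.31, adjusted p = 0.0170) and miR-17-5p fell by 0.84 (SE 0.21, adjusted p = 0.0178) under library totals, and all 3 are from Mir17hg. Without the fold threshold 6 of 8 passed, against 20.6% of all tested, with miR-92a-3p at -0.57 (adjusted p = 0.00979), miR-106b-3p at -0.67 (adjusted p = 0.0288) and miR-93-5p at -0.69 (adjusted p = 0.0372). miR-106b-5p had -0.69 (adjusted p = 0.0650) and miR-25-3p -0.38 (adjusted p = 0.0717). The members' median was -0.69 and that of all tested miRNAs -0.29. The number called ran from 1 to 4 when each library was left out in turn, with 1 called without TAC 2, and the number at adjusted p alone ran from 2 (without TAC 2) to 7, with 3 without Sham 3 or without TAC 1. Without Sham 1, miR-17-5p was at -0.70 (adjusted p = 0.0275) and miR-20a-5p at -0.89 (adjusted p = 0.0166).

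Of the marker lists of other cell types, only the endothelial one had a summed level below all sham libraries in all TAC libraries. The 2 endothelial miRNAs, arms of 1 hairpin, summed to 60050 ± 10602 CPM in sham and 32856 ± 2415 CPM in TAC, with no overlap. At adjusted p alone edgeR gave 2 of 2 lower under library totals, against 20.6% of all tested, and 1 of 2 under TMM, against 8.52%. It gave 0 of 2 under reference scaling, which cannot test this list, as miR-126a-3p is itself a reference there. The 3 erythroid miRNAs (miR-451a and the miR-144 arms) summed to 418 to 1503 CPM in sham and 43.8 to 550 CPM in TAC, the 4 leukocyte miRNAs to 1195 to 2360 CPM and 937 to 1332 CPM, and the 4 fibroblast and smooth muscle miRNAs to 37623 to 44577 CPM and 33967 to 38523 CPM, all with overlap. The 4 cardiomyocyte miRNAs summed to 177258 ± 16439 CPM in sham and 221948 ± 21203 CPM in TAC, also with overlap. Under library totals edgeR at adjusted p alone gave 0 lower among the 4 cardiomyocyte, 2 erythroid, 3 leukocyte, 4 fibroblast and smooth muscle and 5 epithelial miRNAs tested, against 20.6% of all tested. By size, the fall was not particular to the endothelial list. Medians by list (library totals, log2 of TAC over sham) were -0.91 for endothelial, -1.52 for erythroid and -0.95 for leukocyte miRNAs. They were -0.30 for fibroblast and smooth muscle, -0.04 for cardiomyocyte and 0.93 for epithelial miRNAs. Among the leukocyte miRNAs, only miR-142a-5p had all TAC libraries below all sham libraries. No marker of these lists was at 0, and the part of these cells in the members' levels was not tested.

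The study scaled libraries to its pair of reference miRNAs, which here multiplied the TAC library sizes by 0.537 and raised every TAC value by 0.90 on the log2 scale. The median log2 fold change of all tested miRNAs then became 0.61, and 36.8% of them were called higher and 0.897% lower. Of the 7 members other than miR-19b-3p, whose own value is set in part by this scaling and was not tested, edgeR called 0 higher and 0 lower. With the replicate number as a block it also called 0 of 7 in either direction, against 34.1% higher and 1.35% lower among all tested. At adjusted p alone 2 of 7 were higher, against 63.7% of all tested. These were miR-25-3p (0.52, SE 0.14, adjusted p = 0.00865) and miR-92a-3p (0.33, SE 0.12, adjusted p = 0.0376), the pair that shares the AUUGCAC seed. The paper reports miR-92a-3p, for which it found a working site in RBFox2, as significantly raised after TAC. Here it was 1.25-fold higher, below the 1.7-fold that a call required. The paper names Student's t-test and no adjustment, so its test was a different one.

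For the other members the values were 0.06 (SE 0.20, adjusted p = 0.825) for miR-17-5p, -0.38 (SE 0.30, adjusted p = 0.294) for miR-20a-5p, 0.21 (SE 0.24) for miR-106b-5p, 0.23 (SE 0.18) for miR-106b-3p and 0.21 (SE 0.20) for miR-93-5p, the last 3 with adjusted p of 0.451, 0.281 and 0.377. Only Sham 1 decided the sign of miR-20a-5p, which was 0.13 without it, miR-17-5p had 0.31 without it (adjusted p = 0.152), and the value of miR-93-5p without Sham 1 was 0.49 (adjusted p = 0.0266). The miR-92a-3p result did not keep an adjusted p below 0.05 without Sham 2, Sham 3, Sham 4, TAC 2 or TAC 3 (0.0627 to 0.163), nor with 1 reference factor per library (0.28, adjusted p = 0.224) or miR-126a-3p alone (0.22, adjusted p = 0.140). Its groups did not overlap on the reference-scaled scale, and with the factor computed anew in each arrangement the exact permutation test gave p = 0.143, against p = 0.0286 for miR-25-3p. miR-25-3p kept an adjusted p below 0.05 in each of the 8 fits that left out a library (0.00567 to 0.0498). With 1 reference factor per library it had 0.49, with an edgeR adjusted p of 0.0465, close to the threshold. Fitted without a filter on counts, miR-18a-5p had -0.41 (adjusted p = 0.559) and miR-19a-3p -0.12 (adjusted p = 0.801).

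Of the 8 tested members, 6 had a sign that depended on the scaling, while miR-20a-5p and miR-19b-3p were below 0 under each of the scalings given here. Under reference scaling the sign of miR-19b-3p is no separate observation. The 2 references mirror each other there by arithmetic, with -0.10 for miR-19b-3p and 0.10 for miR-126a-3p. A scaling moves all miRNAs of a library alike, so the distance of a member from the median of all tested miRNAs is nearly fixed by arithmetic, and its likeness under several scalings is no evidence of stability. Relative to the median of all tested miRNAs, miR-19b-3p was at -0.71 under reference scaling. On the same relative scale, miR-20a-5p was at -0.98, miR-17-5p at -0.55, miR-93-5p at -0.40, miR-106b-5p at -0.39, miR-106b-3p at -0.38, miR-92a-3p at -0.28 and miR-25-3p at -0.09. All 8 tested members thus lay below the median, with miR-25-3p closest to it, by less than its SE and ranked 89 from the lowest of 223, and miR-20a-5p farthest, ranked 7. Under TMM, edgeR's scaling that takes most miRNAs as unchanged, edgeR called 2 of 8 lower, miR-19b-3p (-0.79, adjusted p = 0.0196) and miR-20a-5p (-1.07, adjusted p = 0.0417), against 4.48% of all tested, and 0 higher, against 1.35%. The same 2 passed at adjusted p alone, against 8.52% of all tested, and 0 or 1 member did when a library was left out. DESeq2 with its own size factors called 1 of 8 lower (miR-20a-5p), against 4.04% of all tested, and 0 higher, against 2.24%. With miR-126a-3p alone as the reference, a scaling that holds no member, 0 of 8 were called higher or lower, against 28.3% called higher among all tested, and miR-19b-3p had -0.20 (adjusted p = 0.351). There only miR-25-3p passed at adjusted p alone (0.42, adjusted p = 0.0283), 1 of 8, against 51.1% higher among all tested.

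**Figure D2:**
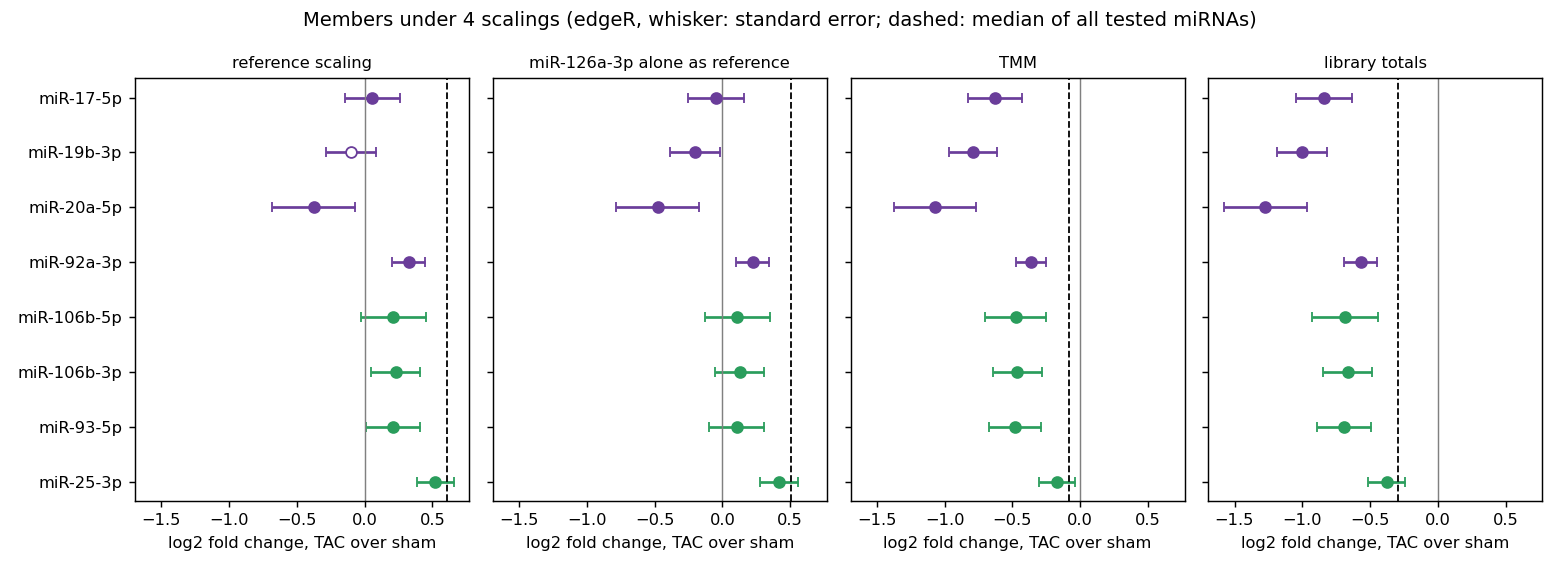
Log2 fold change of TAC over sham (x axis) of the 8 tested members under reference scaling, miR-126a-3p alone, TMM and library totals; points are edgeR estimates, whiskers standard errors, purple Mir17hg and green Mcm7, and the dashed line is the median of the 223 tested miRNAs. The open point is miR-19b-3p where it is itself a reference. All points lie left of the dashed line in each panel, with miR-25-3p nearest to it, as 1 common factor leaves these distances as they are. The sign against 0 changes with the scaling for 6 members and is negative in all 4 panels for miR-19b-3p and miR-20a-5p. The sign of the open point is set in part by the scaling.

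The ratio of a member to miR-19b-3p within a library needs no scaling between libraries and measures directly whether it follows that miRNA. With each library's miR-19b-3p count as its size, edgeR called 0 of 7 members higher and 0 lower, against 45.9% higher and 0.901% lower among the 222 miRNAs tested. At adjusted p alone 1 of 7 was higher, against 62.2% of all tested. This was miR-25-3p, with a log2 fold change of the ratio of 0.62 (SE 0.24, adjusted p = 0.0281). The members' median was 0.29 and that of all tested miRNAs 0.72.

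The log2 ratio of miR-25-3p to miR-19b-3p was 1.71, 1.25, 1.75 and 1.66 in sham and 2.14, 2.24, 2.46 and 2.03 in TAC. All TAC libraries were above all sham libraries, as for 41.9% of the tested miRNAs (exact permutation test, p = 0.0286, the smallest possible). The mean ratio was 1.54 times that of sham on the geometric scale. The edgeR adjusted p was above 0.05 without Sham 2, Sham 3, Sham 4, TAC 2 or TAC 3 (0.0562 to 0.0978) and without a filter on counts (0.0673), while the log2 fold change of the ratio stayed between 0.52 and 0.68 in the 8 fits that left out a library.

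The log2 ratio of miR-92a-3p to miR-19b-3p was 2.98, 2.51, 2.64 and 2.65 in sham and 3.06, 3.24, 3.28 and 2.93 in TAC. The groups overlapped between Sham 1 and TAC 4, and the difference of 0.43 did not pass (edgeR adjusted p = 0.0944, exact permutation test p = 0.0571). It passed without Sham 1 (0.53, edgeR adjusted p = 0.0483) and without TAC 4 (0.49, edgeR adjusted p = 0.0248). With all 8 libraries and miR-19b-3p as 1 factor for the TAC group, the value was 0.43 (edgeR adjusted p = 0.0104). That fit takes the factor as known and leaves out the spread of miR-19b-3p among libraries, so its p is not a test of the ratio.

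The miR-19 pair kept the closest means. The log2 ratio of miR-19a-3p to miR-19b-3p was -3.14, -3.09, -3.39 and -3.01 in sham and -3.45, -3.37, -3.15 and -2.90 in TAC, with overlap and a difference of means of -0.06 (exact permutation test, p = 0.714). The differences for the remaining Mir17hg members were 0.18 for miR-17-5p, -0.20 for miR-20a-5p and -0.25 for miR-18a-5p (exact permutation p = 0.571, 0.743 and 0.600). Their sham libraries were spread widely, with SDs of 0.45, 0.80 and 0.66 on the log2 scale, so each of these differences was smaller than the spread of the sham libraries. In the Mcm7 cluster miR-106b-5p had 0.31, miR-106b-3p 0.34 and miR-93-5p 0.33 (exact permutation p = 0.229, 0.314 and 0.286), all overlapping. In all, 9 ratios were compared, and a p above 0.05 here does not show that a member kept the ratio.

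**Figure D3:**
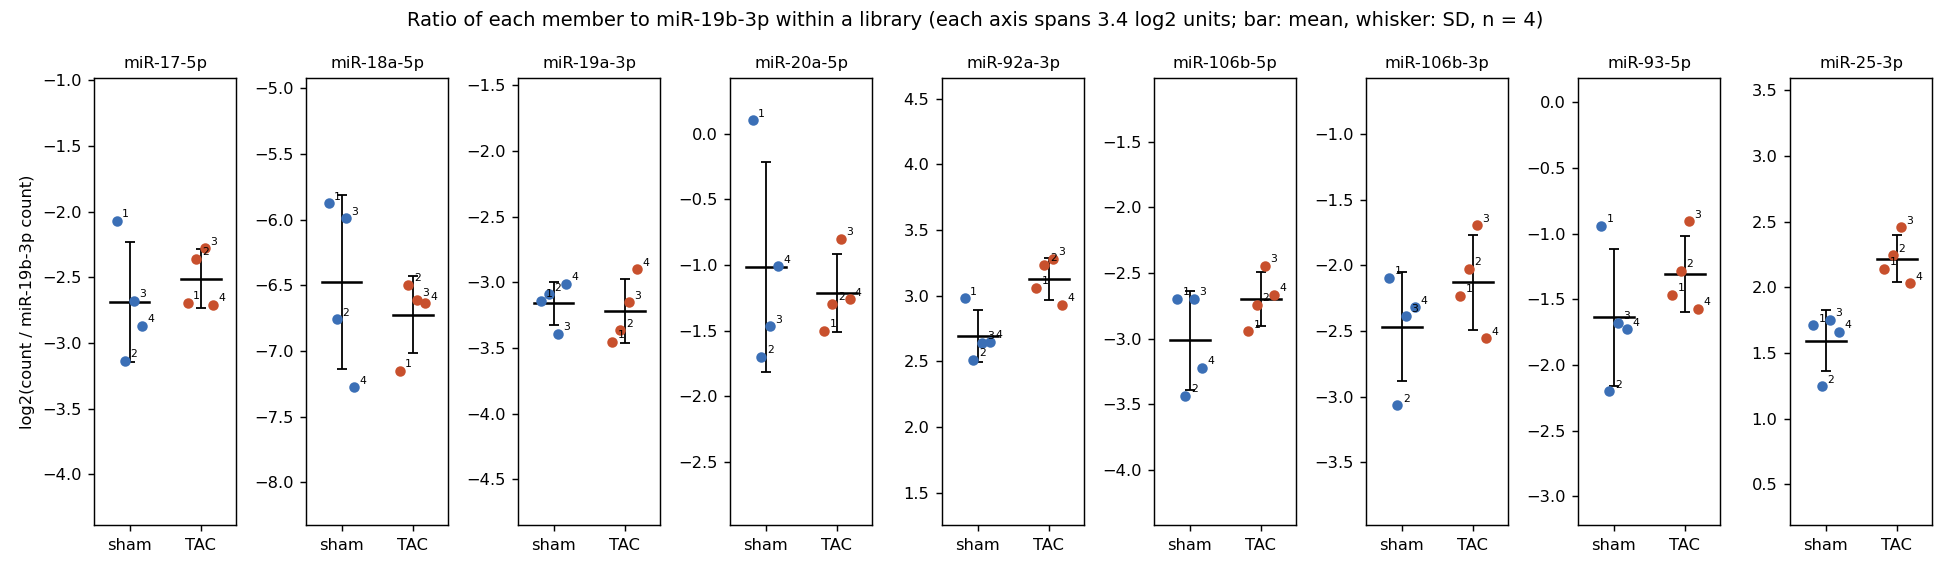
Log2 ratio of each member's count to the miR-19b-3p count in the same library (y axis, every panel spanning 3.4 log2 units), for 4 sham (blue) and 4 TAC (red) libraries numbered by replicate; bars are means and whiskers SD. Only in miR-25-3p are all TAC points above all sham points, and Sham 1 is far above the other sham points in miR-20a-5p.

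Both arms of the miR-106b hairpin are members, and their ratio is free of scaling. The log2 ratio of miR-106b-5p to miR-106b-3p was -0.60, -0.37, -0.31 and -0.90 in sham and -0.71, -0.71, -0.74 and -0.11 in TAC. The -3p arm had more counts in all 8 libraries, and TAC 4 was apart from the other TAC libraries. The mean was -0.54 ± 0.27 in sham and -0.57 ± 0.31 in TAC, a difference of -0.02 (exact permutation test, p = 1.00) that was -0.18 without TAC 4 and positive without any 1 of the other TAC libraries, Sham 2 or Sham 3. The remaining arms of both clusters numbered 8, of which 6 were in the files and 0 reached a mean of 100 counts. Summed, they were at 42.6 ± 5.50 CPM in sham and 27.7 ± 3.20 CPM in TAC, with all TAC libraries below all sham libraries. Singly, this held for the Mir17hg arms miR-17-3p (means 17.6 and 8.25 CPM), miR-20a-3p and miR-92a-1-5p. The Mcm7 arms miR-93-3p (12.9 and 11.3 CPM) and miR-25-5p (5.42 and 3.83 CPM) overlapped, as did miR-18a-3p. Of the 223 tested miRNAs, 27.4% had all TAC libraries below all sham libraries.

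miR-25-3p had 81.7 to 207 times the counts of miR-25-5p in sham and 78.5 to 254 times in TAC, and miR-17-5p had 1.54 to 2.41 times those of miR-17-3p in sham and 1.89 to 2.92 times in TAC. These arm ratios overlapped between the groups. The ratio of miR-20a-5p to miR-20a-3p was 44.1 in Sham 1 and 13.2 to 18.3 in the other sham libraries, and the ratio of miR-93-5p to miR-93-3p was 10.2 in Sham 1 and 3.36 to 4.97 in the others. The other arms of these 2 hairpins were not high in Sham 1, where miR-20a-3p had 20 counts against 21 to 33 in the other sham libraries and miR-93-3p had 42 against 48 to 91. miR-17-3p, in contrast, had its highest count in Sham 1, 113 against 50 to 104 in the other sham libraries. miR-92a-1-5p had 9 counts in Sham 1 against 5 to 8, too few to tell the libraries apart.

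Outside the clusters, miR-32-5p and miR-92b-3p share the AUUGCAC seed, and only miR-32-5p was tested. It had 0.38 under reference scaling (SE 0.18, adjusted p = 0.0826), -0.52 under library totals (adjusted p = 0.0593) and a ratio to miR-19b-3p of 0.52 (adjusted p = 0.131). By the first of these it lay between miR-92a-3p and miR-25-3p, the cluster members with that seed, and it did not pass under any of them.

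Closeness to miR-19b-3p was described by the SD over the 8 libraries of the log2 ratio of counts to it, for 222 miRNAs with a median SD of 0.55. The 5 with the smallest SD were miR-10a-5p (0.20), miR-322-5p (0.28), miR-92a-3p (0.29), miR-497a-5p (0.29) and miR-101a-3p (0.29), so 1 of the 5 was a member. The other members ranked 14 (miR-106b-5p), 16 (miR-17-5p), 27 (miR-25-3p), 41 (miR-106b-3p), 55 (miR-93-5p) and 123 (miR-20a-5p), and 6 of 7 had an SD below that median. The reference miR-126a-3p ranked 11. miR-25-3p reached its rank with a shift between groups and a small spread within them (pooled SD within groups 0.21), whereas miR-20a-5p had a small shift and a wide spread (0.60). Sham 1 was far from the other sham libraries in that ratio of miR-20a-5p, at 0.10 against -1.70, -1.47 and -1.01 in Sham 2 to 4. The ratio was higher on average in TAC for 207 of the 222 miRNAs, with a median difference of 0.73, so a small SD also reflects a group shift smaller than usual.

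**Figure D4:**
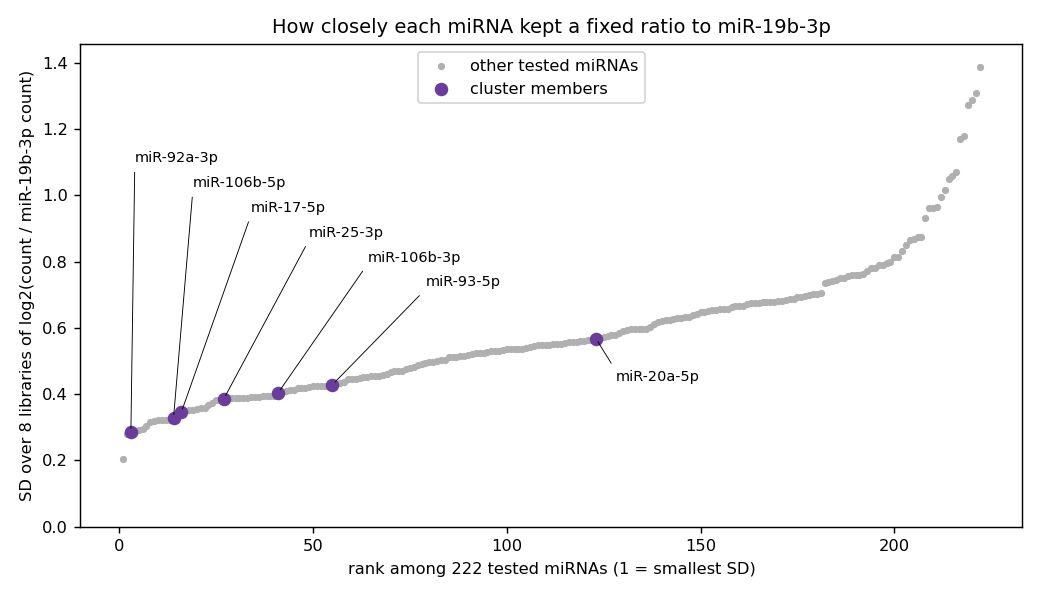
SD over 8 libraries of the log2 ratio of each miRNA's count to that of miR-19b-3p (y axis, from 0) by rank among the 222 tested miRNAs (x axis); purple points are the 7 tested members and grey points all others. miR-92a-3p is at rank 3 and miR-20a-5p at rank 123, with the remaining members between rank 14 and rank 55.

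Across both clusters, the log2 ratio of the summed Mcm7 members to the summed Mir17hg members was -1.18 ± 0.187 in sham and -0.94 ± 0.0745 in TAC. The groups overlapped, with Sham 3 at -0.97 and TAC 1, TAC 2 and TAC 4 at -0.96, -1.01 and -0.97.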

How the data were processed

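Small RNA libraries of 8 mice were analysed, 4 sham and 4 TAC, grouped by the sample labels. The authors deposited whole-number counts per mature miRNA and library, not normalized. The submitters' processing notes name mm10 and StringTie 1.3.1; aligner, miRNA reference and handling of reads fitting several miRNAs are not given in the sources used here. The study states 4 pairs of sham and TAC mice, with 1 library a mouse. Sequences and positions came from RefSeq (GRCm38.p6), exons from GENCODE.

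The 10 members, whatever their values, miR-126a-3p, the 5 miRNAs closest to miR-19b-3p and list members above the count minimum were named. Members and lists were chosen with earlier results of these data known.

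miRNAs with a mean above 100 counts were tested with edgeR 4.0.16 in R 4.3.3 (estimateDisp, glmQLFit, glmQLFTest, group as the only term), with Benjamini-Hochberg adjustment over all tested and a call where the adjusted p was under 0.05 and the change more than 1.7-fold. Library sizes were totals, multiplied in TAC by 0.537, the factor that sets the geometric mean of both references' mean CPM equal in sham and TAC; or library totals; or the miR-19b-3p counts. A standard error is the log2 fold change divided by the square root of the F statistic. The factor of 0.537 was taken as known, so the spread of the references among libraries is not part of these errors. For single values the test was the 2-sided exact permutation test (70 arrangements) in Python 3.11.15 with scipy 1.17.1. Alternatives were TMM, library totals with and without members, other references, DESeq2 1.42.0, count filters, fold thresholds, a replicate block and each library left out. Leaving libraries out under library totals and TMM was added after the data had been seen. The scripts were tested on simulated data. Totals of 4005668 to 7798943 counts gave counting errors of 1.12% to 1.45% for miR-92a-3p and 7.14% to 10.7% for miR-17-5p; these cover counting error only.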

Additional observations from a re-analysis of the deposited data

Results flagged for a closer look

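In 3 of 42 groups of 4 libraries, 1 library lay far from the others by Dixon's criterion, which chance meets in about 1 of 20 groups. miR-20a-5p in Sham 1 was at 190.6 CPM, with the nearest sham library at 96.1 CPM. miR-19a-3p in TAC 4 was at 18.4 CPM, with the nearest TAC library at 10.4 CPM. The log2 ratio of miR-106b-5p to miR-106b-3p was -0.11 in TAC 4, with the nearest TAC library at -0.71; TAC 4 is also the library with 1406 CPM of epithelial miRNAs.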

How the results depend on the processing

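The scaling decided the sign of 6 of the 8 tested members, while miR-20a-5p and miR-19b-3p were below 0 under reference scaling, miR-126a-3p alone, TMM, library totals and DESeq2 with its own size factors. The value of miR-19b-3p under reference scaling is set in part by its use as a reference. In place of the positive values of reference scaling, TMM gave -0.63 for miR-17-5p, -0.36 for miR-92a-3p, -0.48 for miR-106b-5p, -0.46 for miR-106b-3p, -0.48 for miR-93-5p and -0.17 for miR-25-3p. Library totals, with or without the members' counts in them, gave -0.84, -0.57, -0.69, -0.67, -0.69 and -0.38 in that order, and DESeq2 with its own size factors -0.58, -0.31, -0.42, -0.41, -0.43 and -0.12. For miR-17-5p, miR-126a-3p alone gave -0.045 and 1 reference factor per library -0.0135. Of the 7 members without miR-19b-3p, 1 was called lower under TMM, 2 under library totals, 2 under totals without the members and 1 under DESeq2 with its own size factors, against 0 under reference scaling. With no fold change required, 2 of 7 were higher under reference scaling and 1 relative to miR-19b-3p, where a fold change above 1.5 also gave 1.

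With each library left out, both comparisons called 0 members higher and 0 lower in all 8 fits. The log2 fold changes ran from -0.077 to 0.31 for miR-17-5p and -0.59 to 0.13 for miR-20a-5p under reference scaling, and relative to miR-19b-3p from -0.00046 to 0.39 for miR-17-5p, -0.060 to 0.028 for miR-19a-3p and -0.56 to 0.17 for miR-20a-5p. The arm difference of miR-106b ran from -0.18 to 0.054, and the number called lower under library totals from 1 to 4. miR-19a-3p passed the count filter in only 3 of these fits and miR-18a-5p in none.

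Whether equal replicate numbers mark the study's pairs of mice is not given in the labels. Same-numbered libraries had residual correlations of 0.17, -0.37, 0.31 and -0.22, too few values to decide it. With the replicate number as a block, 0 members were called higher and 0 lower. miR-25-3p then had 0.52 (edgeR adjusted p = 0.0213) and miR-92a-3p 0.33 (adjusted p = 0.0913) under reference scaling, and the ratio of miR-25-3p to miR-19b-3p 0.63 (adjusted p = 0.0751). Depth limited miR-18a-5p, with 4 to 17 counts in a library. The cause of these differences was not tested.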
